A study of Gallus gallus with 6 samples.

Results

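The miR-10 and miR-196 microRNAs (miRNAs, small RNAs that silence messenger RNAs) are encoded inside the Hox gene clusters. Their rows were selected by name: every mature miRNA called gga-miR-10a, gga-miR-10b or gga-miR-196, with both arms and all gene copies. That gave 7 of the 667 mature miRNAs in the table, namely gga-miR-10a-5p, gga-miR-10a-3p, gga-miR-10b-5p, gga-miR-10b-3p, gga-miR-196-5p, gga-miR-196-1-3p and gga-miR-196-2-3p. A miRNA hairpin yields a 5p and a 3p strand (its arms), of which one is usually kept and the other mostly degraded.

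The samples were abdominal fat of female broiler chickens (Gallus gallus) at day 35, from a feeding study in which 240 chicks received 1 of 5 diets from 1 day of age. Of the 5 diets, with 0 to 100 IU of DL-α-tocopherol acetate, a vitamin E ester, small RNAs were sequenced for 2 groups. The libraries were 3 from birds given 50 IU and 3 from control birds, whose dose is not printed beside the samples. No genotype, strain or pooling is stated for either group, nor whether each library is a different bird; p-values therefore reflect only how far these libraries lie apart, which may be technical.

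Hox genes set the identity of body segments along the head-to-tail axis, and the miRNAs between them share their regional expression. The miR-10 genes lie near the fourth Hox genes of their clusters, and miR-196 genes lie farther toward the posterior end. In vertebrates miR-10 is known to repress several Hox messages, and miR-196 directs cleavage of HOXB8 mRNA. In mouse, miR-196a has been studied as a promoter of brown fat cell formation through Hoxc8.

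The chicken gene table of assembly GRCg7b held all 5 genes of these miRNAs. In it the miR-10a gene overlapped HOXB3 and lay between HOXB5 and HOXB4. The miR-10b gene overlapped HOXD3 and lay between HOXD4 and HOXD8. The miR-196-1 gene overlapped an unnamed protein-coding locus and lay between HOXB13 and HOXB8, and the miR-196-3 gene lay between HOXC9 and HOXC10. The miR-196-2 gene overlapped HOXA9 and lay between HOXA7 and HOXA10. HOXB, HOXD, HOXA and HOXC proteins are transcription factors. No source used here names the build of the deposited table, and only these neighbours are therefore stated.

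Abundance is given as TPM as the authors deposited it, which is a read count scaled to a library total of 1e+06 with no length term. Mature miRNAs are alike in length, so the missing length term matters little when TPM of different miRNAs are set side by side. The library kit is not given, and how evenly it captured different miRNAs was not tested. Ranks and ratios between different miRNAs are therefore those of reads. Library totals were 5844435 to 7062595 counts with vitamin E and 5028671 to 7357204 in control. Differences are log2 fold changes, vitamin E over control, from edgeR's quasi-likelihood test on the counts, with Benjamini-Hochberg adjustment over the 238 miRNAs that passed a filter on low counts and a threshold of 0.05.

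The miR-10 hairpins gave some of the most abundant miRNAs of abdominal fat, and miR-196 was far scarcer. All members together held 16.0%, 13.3% and 18.1% of the counts in the vitamin E libraries, against 14.7%, 12.3% and 14.7% in the control libraries. The mean share was 15.8% ± 2.42 with vitamin E and 13.9% ± 1.36 in control (mean ± SD, n = 3; two-sided exact permutation p = 0.4, where 0.1 is the smallest that 20 relabellings allow). The groups overlapped. With 1 library left out, the difference in percentage points was 3.16 without vitamin E 2 (exact permutation p = 0.1, the smallest possible, with the groups apart), 0.75 without vitamin E 3 and 1.12 without control 2. The 5p arms made up 99.4% to 99.6% of the member reads in each library.

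miR-10a-5p, the kept strand of the hairpin in the HOXB cluster, stood at 126134, 90849 and 135608 TPM with vitamin E, against 94425, 94257 and 93926 TPM in control. It was the second most abundant miRNA in all vitamin E libraries and in control 1, and the third in control 2 and control 3. With vitamin E, 2 libraries lay above every control library and 1, vitamin E 2, lay below every one. Its mean was 117530 ± 23587 TPM with vitamin E and 94203 ± 254 TPM in control (mean ± SD, n = 3). The fitted difference of miR-10a-5p was 0.21 on the log2 scale (SE 0.22, 95% interval -0.29 to 0.70; edgeR adjusted p = 0.842). With 1 library left out it ran from 0.046 without vitamin E 3 to 0.35 without vitamin E 2, and it was 0.12 without control 3.

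miR-10b-5p, the kept strand of the hairpin in the HOXD cluster, stood at 33049, 41381 and 44431 TPM with vitamin E, against 51412, 28529 and 52170 TPM in control. The vitamin E libraries all lay inside the range of the controls, which control 2 set at its low end. It ranked between the fifth and the tenth place in each library. The fitted difference of miR-10b-5p was -0.28 on the log2 scale (SE 0.29, 95% interval -0.95 to 0.39; edgeR adjusted p = 0.842). With 1 library left out it ran from -0.52 without control 2 (edgeR unadjusted p = 0.0403, adjusted p = 0.369) to -0.15 without control 1 (edgeR adjusted p = 0.892), and it was -0.17 without vitamin E 1. miR-10a-5p and miR-10b-5p have the same seed, the stretch that chooses targets, and are nearly identical in sequence. No source used here says how reads that fit both were counted, so the division between them is uncertain. Summed to 1 row, they had a log2 fold change of 0.067.

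miR-196-5p, the kept strand shared by the miR-196 genes, stood at 310, 98.1 and 284 TPM with vitamin E, against 242, 83.7 and 178 TPM in control. Both groups held a low library, vitamin E 2 and control 2, and the other 4 libraries lay between 178 and 310 TPM. The group ranges overlapped. The fitted difference was 0.32 on the log2 scale (SE 0.55, 95% interval -0.94 to 1.57; edgeR adjusted p = 0.899). Without control 2 the difference was 0.0094 and without control 1 it was 0.70, so its size depended on single libraries.

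**Figure D1:**
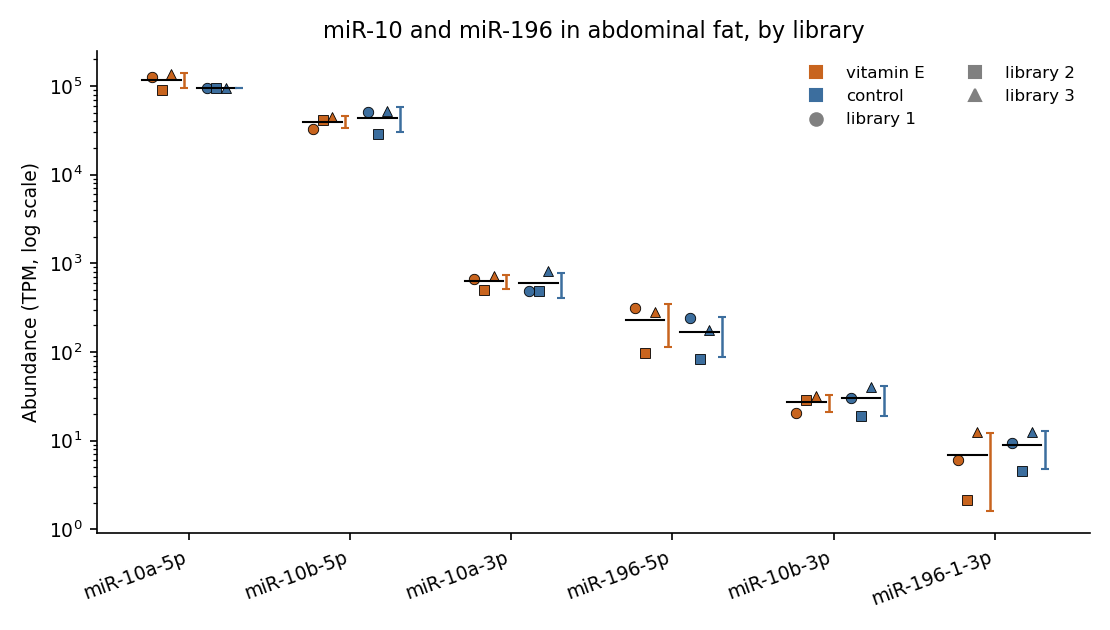
Abundance in TPM on a log axis of the 6 tested members in each library, with vitamin E libraries to the left of control libraries for each member. Horizontal lines are means, vertical bars are the SD of 3 libraries, and symbol shape gives the library number within a group, which does not pair libraries; miR-10a-5p in control is the tightest set of points, at 93926 to 94425 TPM, and miR-196-2-3p is not drawn because it had 0 counts in 4 libraries.

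The 3p arms, usually the degraded strands, were a small remainder. miR-10a-3p stood at 668, 498 and 720 TPM with vitamin E, against 484, 482 and 815 TPM in control. One control library, control 3, lay above all others and the remaining controls lay below all vitamin E libraries. Its log2 fold change was -0.011 (SE 0.29), and the sign turned to 0.082 under scaling by library totals alone.

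miR-10b-3p stood at 20.4, 28.9 and 31.8 TPM with vitamin E, against 30.4, 18.9 and 40.6 TPM in control. As for its 5p arm, the control libraries spread to both sides of the vitamin E libraries, with control 2 lowest and control 3 highest. Its log2 fold change was -0.27 (SE 0.42), and it rested on 95 to 299 counts per library.

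The 3p arms of miR-196 differ between gene copies and so carry a trace of which copy was read. miR-196-1-3p, from the copy in the HOXB cluster, was read 35, 15 and 77 times with vitamin E, against 63, 23 and 92 times in control. miR-196-2-3p, from the copy in the HOXA cluster, was read 1, 0 and 1 times with vitamin E, against 0 times in each control library. Of the 307 counts of both 3p arms, 2 came from the HOXA copy, a share of 0.651% (exact binomial 95% interval 0.079% to 2.33%, which covers counting error only). Where no read was found, the limit is 3 counts, which is 0.408 to 0.597 TPM by library. The selection by name held no row for a 3p arm of the HOXC copy. A share of 3p reads says nothing certain about how much 5p strand each copy gave. miR-196-1-3p had a log2 fold change of -0.48 (SE 0.69), which was -1.29 without vitamin E 3 and -0.066 without vitamin E 2.

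None of the members passed the test. Of the 7 rows, 6 passed the filter on low counts and were tested, and miR-196-2-3p was not. With edgeR 0 of 6 were called, where 0.42% of all 238 tested miRNAs were (1 miRNA). At an unadjusted p under 0.05 it was 0 of 6, where 7.56% of all were. DESeq2 and limma-voom also called 0 members, where DESeq2 called 7 and limma-voom 1 of all 238 tested miRNAs. The members' adjusted p ran from 0.842 to 0.991 (edgeR quasi-likelihood). By sign 2 were higher and 4 lower with vitamin E, as were 109 and 129 of all tested, and the median log2 fold change was -0.14 for the members and -0.07 for all tested. For 0 of 6 did the groups not overlap in TPM, where 13.0% of all tested miRNAs had groups apart. Library totals alone as scaling raised the log2 fold changes of the tested miRNAs by a median of 0.107. With library totals alone 3 members were higher and 3 lower.

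**Figure D2:**
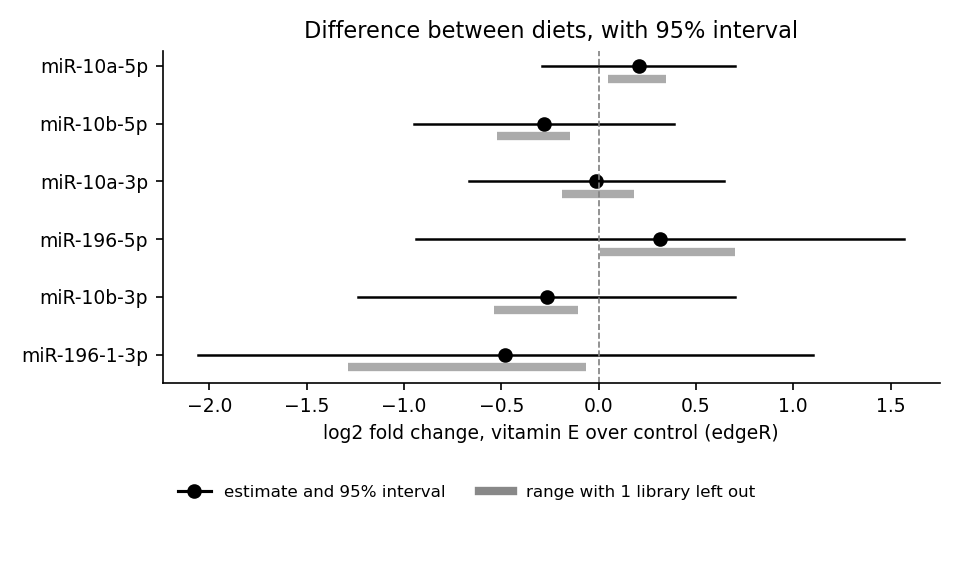
Log2 fold change, vitamin E over control, of the 6 tested members (points, edgeR) with 95% intervals as black lines and, below each, the range over 6 fits with 1 library left out as a grey bar. Every interval includes 0; the narrowest is that of miR-10a-5p and the widest, -2.06 to 1.10, that of miR-196-1-3p.

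The members kept their order of abundance in all 6 libraries. From high to low the means over 6 libraries were 105867 TPM for miR-10a-5p, 41829 for miR-10b-5p, 611 for miR-10a-3p, 199 for miR-196-5p, 28.5 for miR-10b-3p and 7.88 for miR-196-1-3p, with miR-196-2-3p last. No pair of neighbours in that order overlapped over the libraries. miR-10a-5p was between miR-26a-5p and the predicted miRNA novel_1 among all miRNAs ranked by mean TPM, and miR-10b-5p was between miR-148a-3p and let-7f-5p. The 5p arm of miR-196 held place 85 of 667.

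Ratios of members within 1 library do not depend on the library total or on scaling. The ratio of miR-10a-5p to miR-10b-5p was 3.82, 2.20 and 3.05 with vitamin E, against 1.84, 3.30 and 1.80 in control. Vitamin E 1, vitamin E 3 and control 2 were high, and vitamin E 2 lay between control 2 and the other controls. On the log2 scale the mean ratio was 1.56 ± 0.40 with vitamin E and 1.15 ± 0.50 in control (mean ± SD, n = 3), a difference of 0.41 with a two-sided exact permutation p = 0.3. It was 0.22 without vitamin E 1, 0.26 without control 3, 0.27 without control 1, 0.62 without vitamin E 2 and 0.70 without control 2. miR-10a took 79.2%, 68.7% and 75.3% of the paired 5p reads with vitamin E, against 64.7%, 76.8% and 64.3% in control. Counting error was small beside the spread between libraries: the widest exact binomial 95% interval of these shares, in control 2, ran from 76.7% to 76.9%.

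**Figure D3:**
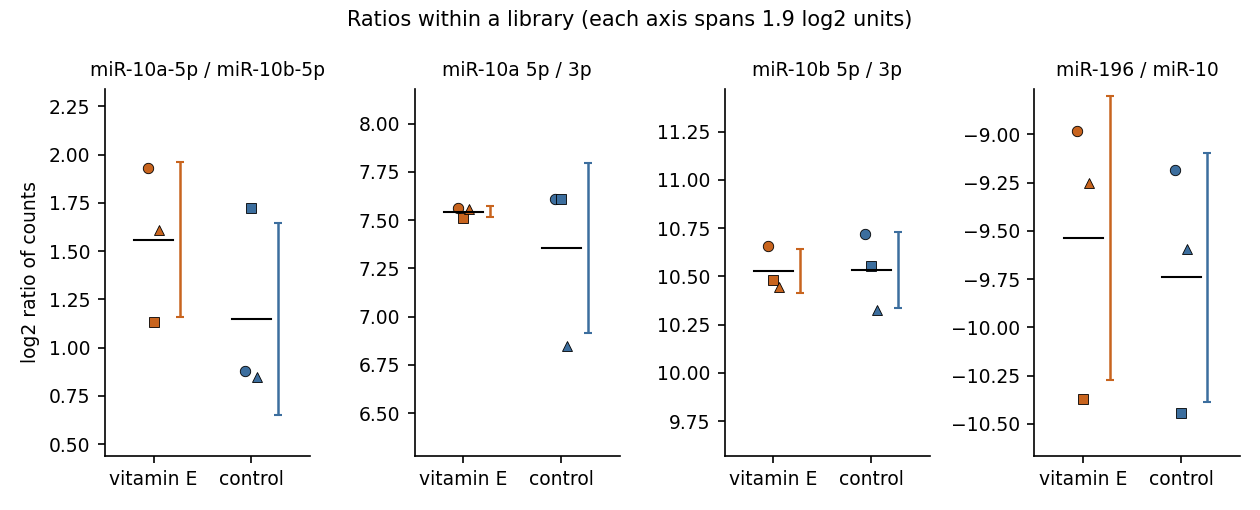
Log2 ratios of counts within each library for 4 pairs of members, vitamin E on the left and control on the right of each panel, with means as lines and the SD of 3 libraries as bars; symbol shape is the library number as in the plot of abundance, and each axis spans 1.9 log2 units. The miR-10b arm ratio varies least, from 10.3 to 10.7, and the ratio of miR-196 to miR-10 varies most, from -10.4 to -8.98.

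The arm ratios of the miR-10 hairpins varied little from library to library. miR-10b-5p outnumbered miR-10b-3p by 1623, 1433 and 1396 times with vitamin E, against 1688, 1510 and 1284 times in control. The log2 arm ratio of miR-10b thus ran from 10.3 to 10.7, a range of 0.39, although miR-10b-5p itself varied 1.83-fold. For miR-10a the arm ratio was 189, 182 and 188 with vitamin E, against 195.0, 195.5 and 115 in control. Control 3 stood apart here, and the other 5 libraries lay between 182 and 195.5.

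Group differences of the arm ratios were small. On the log2 scale the miR-10b ratio averaged 10.53 ± 0.11 with vitamin E and 10.53 ± 0.20 in control (mean ± SD, n = 3; two-sided exact permutation p = 1). The miR-10a ratio averaged 7.54 ± 0.03 with vitamin E and 7.36 ± 0.44 in control (mean ± SD, n = 3, two-sided exact permutation p = 1). Without control 3 its difference of 0.19 became -0.066 (exact permutation p = 0.1, the smallest possible). The groups were then apart, at 7.51 to 7.56 with vitamin E and 7.61 in both remaining control libraries. Among 52 hairpins with both arms tested, 0 had a smaller range of the log2 arm ratio over the 6 libraries than miR-10b and 6 had a smaller one than miR-10a. The median range of the 52 was 1.45. miR-125b lay close to miR-10b, at a range of 0.42. The miR-10b ratio rests on 95 to 299 counts of its 3p arm per library, and the ranges were not adjusted for depth.

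**Figure D4:**
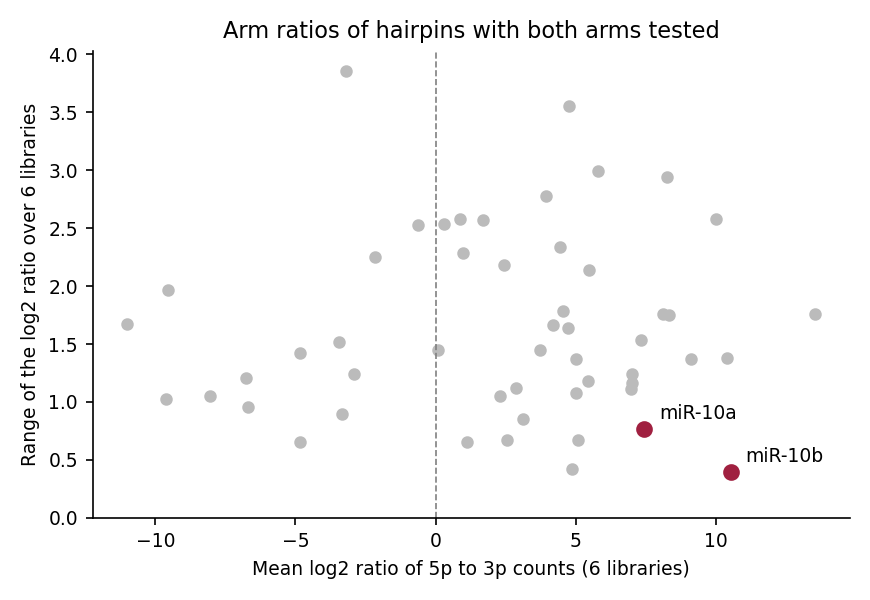
Each point is 1 of 52 hairpins with both arms tested; the horizontal axis is the mean log2 ratio of 5p to 3p counts and the vertical axis is the range of that ratio over 6 libraries. miR-10b lies lowest, at a range of 0.39 and a mean of 10.5, and miR-10a lies at 0.76 and 7.45; the dashed line marks equal arms.

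miR-196 and miR-10 reads were set against each other because both families lie in Hox clusters. miR-10 reads outnumbered miR-196 reads by 506, 1324 and 609 times with vitamin E, against 581, 1396 and 772 times in control. Vitamin E 2 and control 2 had the most lopsided ratios, and the other libraries lay close together. The log2 ratio of miR-196 to miR-10 averaged -9.53 ± 0.74 with vitamin E and -9.74 ± 0.64 in control (mean ± SD, n = 3; two-sided exact permutation p = 0.6). Over the 5 measures compared between groups (the share of all members and the 4 ratios), the Benjamini-Hochberg adjusted permutation p was 1 for each.

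Spread between libraries differed among members. miR-10a-5p in control had a coefficient of variation (SD over mean) of 0.270% in TPM, and 0 of the 238 tested miRNAs had a smaller one, where the median was 35.1%. With vitamin E its coefficient of variation was 20.1%, near the median of 22.3%. On CPM with TMM-scaled library sizes, a scaling chosen after the values were seen, the control value was 10.3% and 8 miRNAs had a smaller one, so its place among the miRNAs depended on the scale. miR-10b-5p varied by 14.9% with vitamin E and 30.5% in control, and miR-196-5p by 50.1% with vitamin E and 47.5% in control.

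**Figure D5:**
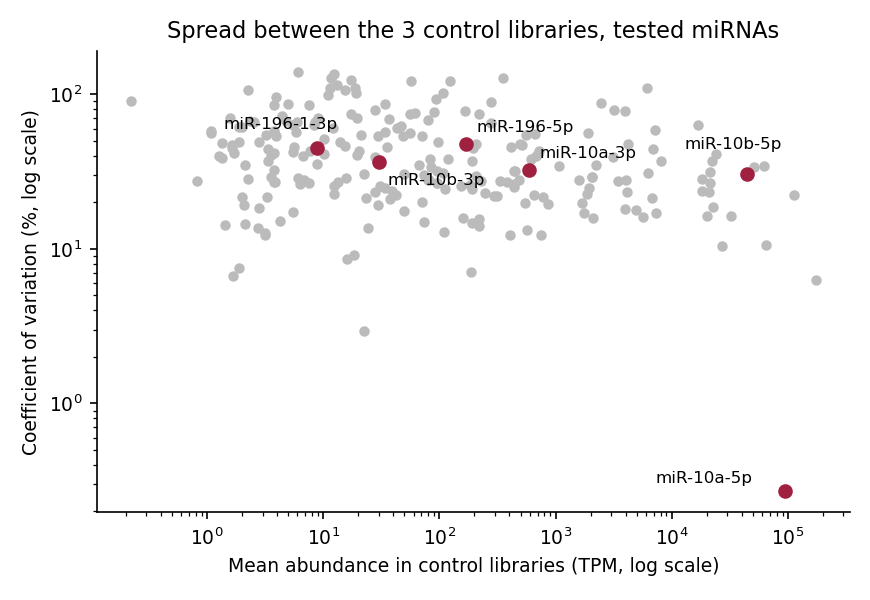
Coefficient of variation of TPM between the 3 control libraries against mean TPM in control, both on log axes, for the 238 tested miRNAs; the 6 tested members are in dark red. miR-10a-5p lies at 0.270%, below all others, and the other members lie at 30.5% to 47.5%.

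Among tested miRNAs other than the members, those whose pattern over the 6 libraries was most like each miR-10 5p arm were sought. The measure was the root-mean-square difference of log2 CPM about each miRNA's own mean. Members were left out of this ranking, so the 3p arm of the same hairpin may lie closer than the miRNAs named. For miR-10a-5p the nearest non-members were miR-1729-3p at 0.15, miR-30b-5p at 0.18 and the predicted novel_51 at 0.18, where the median of all non-members was 0.51. For miR-10b-5p they were miR-460b-5p and miR-1451-3p at 0.17 each and miR-146c-3p at 0.18, where the median was 0.60. Some of these were scarce, so counting error weighs on their patterns. Mean TPM was 6.15 for miR-460b-5p, 6.11 for miR-1451-3p, 20.3 for miR-1729-3p and 137 for miR-146c-3p. Between miR-10a-5p and miR-10b-5p themselves the difference was 0.42. These are descriptions over 6 libraries and were not tested.

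miR-99a and miR-100, which lie beside let-7 genes outside the Hox clusters, belong to the same old family as miR-10, with the seed shifted along the sequence. In the same gene table miR-99a had a let-7c gene and miR-100 a let-7a gene within 10 kb. miR-100-5p stood at 30871, 25070 and 29605 TPM with vitamin E, against 18399, 26858 and 22345 TPM in control. miR-99a-5p stood at 5202, 4350 and 5206 TPM with vitamin E, against 3225, 4664 and 4074 TPM in control. In both, control 2 lay above vitamin E 2, so the groups overlapped. All 4 of 4 tested arms were higher with vitamin E by sign, where 109 of all tested miRNAs were higher and 129 lower. The 4 are both arms of each hairpin and so are not separate signs. They were higher also under each other scaling tried. Their log2 fold changes were 0.21 to 0.65. With 1 library left out these ran from 0.29 to 0.86 for miR-100-3p, 0.12 to 0.35 for miR-100-5p, 0.16 to 0.57 for miR-99a-3p and 0.072 to 0.29 for miR-99a-5p. None passed edgeR's quasi-likelihood test (adjusted p 0.738 to 0.842), where 0.42% of all tested miRNAs did. At an unadjusted p under 0.05 it was 0 of 4, where 7.56% of all were. miR-100-3p was the 1 arm whose groups did not overlap, at 23.8 to 26.2 TPM with vitamin E and 7.35 to 20.9 TPM in control, where 13.0% of all tested miRNAs had groups apart.

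Other miRNAs known to repress Hox messages or lying near them in some species were listed as miR-27b, miR-125b, miR-181a, miR-203, miR-615 and let-7. miR-27b, miR-125b, miR-181a and let-7 matched 20 rows by name, of which 19 were tested. Of these 0 passed edgeR's quasi-likelihood test, where 0.42% of all tested miRNAs did. At an unadjusted p under 0.05 it was 0 of 19, where 7.56% of all were. By sign 5 were higher and 14 lower with vitamin E, where 109 of all tested miRNAs were higher and 129 lower. The median log2 fold change was -0.25 for these rows and -0.07 for all tested. With library totals alone 6 were higher and 13 lower. Most of these rows are let-7 rows, and several are both arms of 1 hairpin, so they are not separate signs. Summed, let-7 stood at 75688 to 95539 TPM with vitamin E and 67360 to 90597 TPM in control. No row bore the exact name miR-203 or miR-615; miR-203a, which these counts leave out and which is named here after its values were seen, had a log2 fold change of 0.59 (SE 0.58; edgeR adjusted p = 0.824). The most abundant of them, let-7f-5p, stood at 27291 to 37173 TPM with vitamin E and 29334 to 38523 TPM in control.

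Markers of other tissues varied between these libraries. Control 2, the library lowest in miR-10b-5p and miR-196-5p, summed to 922 TPM over the intestinal markers miR-194 and miR-215, while the other 5 libraries summed to 103 to 167 TPM. Vitamin E 2, also low in miR-196-5p at 98.1 TPM, summed to 157 TPM over them. In miR-10a-5p control 2 was not low, at 94257 TPM between the other control libraries. Control 2 also had the highest sum of leukocyte markers, 51251 TPM, against 29714 to 42831 TPM in the rest. The most abundant of the leukocyte rows was miR-146c-5p, at a mean log2 CPM of 14.4, against 12.7 for miR-142-5p and 9.12 for miR-223. Between groups the sums did not overlap for nervous tissue (166 to 190 TPM with vitamin E and 31.4 to 41.8 in control), red cells (3250 to 5580 TPM with vitamin E and 1452 to 2940 in control) and liver (5.30 to 7.71 TPM with vitamin E and 12.8 to 20.9 in control). Of all tested miRNAs taken singly, 13.0% had groups apart in TPM. The most abundant nervous-tissue row was miR-9-5p (mean log2 CPM 6.08). It was the 1 miRNA that edgeR called (log2 fold change 2.24, adjusted p = 0.0396). The other tested nervous-tissue rows had a mean log2 CPM of 1.03 to 2.52 and were also higher by sign. In the liver sum, miR-122-5p had a log2 fold change of -1.40 (edgeR adjusted p = 0.325). The most abundant red-cell row was miR-451 (mean log2 CPM 11.5), against 6.31 for miR-144-3p and 6.41 for miR-144-5p. On the log2 scale miR-451 was higher with vitamin E by 0.76 (SE 0.37, edgeR adjusted p = 0.627). The miR-144 arms were lower by sign, at -0.039 (SE 0.42) for 3p and -0.42 (SE 0.46) for 5p. The higher red-cell sum with vitamin E therefore reflects mainly miR-451. Sums of striated muscle, endothelial, stromal and epithelial markers overlapped between the groups. Of the listed markers, miR-192, miR-124b, miR-150, miR-143, miR-145, miR-141 and miR-203 matched no row by name. The stromal sum therefore holds only miR-199 and miR-214, and the epithelial sum leaves out miR-203a. No matched marker row was at 0 in all libraries. The lists hold no miRNA that is particular to fat cells, so the tissue label was not checked by one. In bulk tissue, fewer cells of a type and less RNA per cell cannot be told apart. The part of these markers in the members' values was not tested.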

How the data were processed

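Small RNA abundance in abdominal fat was taken from 1 table of 667 mature miRNAs (551 with chicken names, 116 predicted) in 6 libraries. The read counts the authors deposited are whole numbers per miRNA, per the file headers. The TPM values the authors deposited equal count over library total, times 1e+06, without regard to length (largest deviation 4.07e-10). Of aligner, counting rule, genome build and library kit nothing is given in the sources used here.

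The groups were compared over all miRNAs with edgeR 4.0.16 in R 4.3.3 (TMM factors, filterByExpr at count 10 and total 15, robust quasi-likelihood F test, Benjamini-Hochberg adjustment). SE was the fold change over the square root of F. Within-library ratios, with 0.5 added to each count, were compared by two-sided exact permutation tests. DESeq2 1.42.0, limma 3.58.1, other scalings and filters, a replicate block, fits without 1 library and a sum of both miR-10 5p arms were alternatives. The fits were tested on simulated data. The members, marker lists and related miRNAs were chosen with earlier results of these data known. Every member is named, with the miRNAs beside it in rank, 3 non-members of most alike pattern and the listed relatives. The miR-100-3p arm is part of the listed relatives. No miRNA sequences were used here.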

Additional observations from a re-analysis of the deposited data

How the results depend on the processing

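In each of the 19 alternative fits 0 members passed, with adjusted p of 0.369 or more. The direction of a member held in 106 of 113 pairs of member and fit. It turned for miR-10a-3p with library totals alone (0.082), limma on log2(TPM + 1) and on log2(TPM + 0.1) (0.11 each) and the replicate block (0.0018), and between -0.19 and 0.18 with 1 library left out. The row of both 5p arms summed (0.067) was set against miR-10a-5p and against miR-10b-5p, and counts as a turn for miR-10b-5p. The miR-10b-5p row itself was lower with vitamin E in every fit that held it. The count of all miRNAs past the threshold, 1, was 0 with upper-quartile factors and with scaling that leaves out the member rows, 8 with no low-count filter, 7 with DESeq2, 3 with limma on log2(TPM + 1), 5 with the replicate block and 0 to 1 with 1 library left out. The cause was not tested.

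With 1 library left out, the difference in the members' share of counts ran from 0.75 to 3.16 percentage points and in the log2 ratio of miR-10a-5p to miR-10b-5p from 0.22 to 0.70. That in the log2 ratio of miR-196 to miR-10 ran from -0.15 to 0.62, in the miR-10b arm ratio from -0.11 to 0.089 and in the miR-10a arm ratio from -0.066 to 0.32. The permutation test could not go below 0.1. The coefficient of variation of miR-10a-5p in control was 10.3% on TMM-scaled CPM, chosen after the values were seen. Deviations from the group means did not correlate between libraries of the same number (-0.16, 0.046 and -0.020), so the replicate block is given only as an alternative. Depth limits miR-196-1-3p and miR-196-2-3p most, at 15 to 92 and 0 to 1 counts per library.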

Other observations

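The arm ratio of miR-196, a value that was not among the compared measures, varied more than those of the miR-10 hairpins. miR-196-5p outnumbered the summed miR-196 3p arms by 50.3, 46.2 and 22.2 times with vitamin E, against 25.6, 18.3 and 14.2 times in control. Control 1 lay above vitamin E 3, so the groups overlapped. The 3p side of this ratio rests on 15 to 92 counts per library, and its difference was not tested.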
